A study of Mus musculus with 6 samples.

Results

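The genes encoding small leucine-rich proteoglycans, matricellular proteins and fibronectin were examined in the proximal end of the mouse incisor. The 9 genes were decorin (Dcn), biglycan (Bgn), asporin (Aspn), lumican (Lum), fibromodulin (Fmod), osteoglycin (Ogn), periostin (Postn), osteonectin (Sparc) and fibronectin (Fn1). They were chosen by name, as a family list, with earlier results of these data known. All 9 were found among the 19060 genes of the count table, and all 9 passed the filter on low counts that left 15826 genes for testing. Control mice were Fgfr1fl/fl, which the labels call wild type, and mutant mice were Gli1-Cre;Fgfr1fl/fl in the labels and Gli1CreER;Fgfr1fl/fl in the methods of the study. Both groups therefore carried floxed Fgfr1 alleles, and Cre was present in the mutants only. The Cre is driven from the Gli1 locus and activated by tamoxifen, so that Fgfr1 is deleted in Gli1-expressing cells and their progeny, while the RNA came from the whole proximal end. Mice received tamoxifen at 1 month of age and the incisors were taken 1 week later, with 3 samples in each group. The labels do not say whether each sample came from a separate animal, so p-values measure the spread between these samples.

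The total counts were 32292649, 31060222 and 32712448 in controls 1 to 3. They were 5276557, 11819576 and 11358282 in mutants 1 to 3. Every mutant library was thus shallower than every control library, and depth and genotype cannot be told apart in this design. The sample titles number the libraries S1 to S3 in controls and S2 to S4 in mutants. Whether both groups were sequenced in the same run is not given in the sources used here, so a run difference and genotype cannot be told apart either, for any result below. The labelled tissue was checked with tooth markers. Amelx, the main enamel matrix gene of ameloblasts, ranged from 50951 to 66939 CPM (counts scaled to library size and to the upper quartile of each library) in controls and from 15184 to 42259 CPM in mutants. Dspp, the dentin matrix gene of odontoblasts, ranged from 1590 to 7742 CPM in controls and from 2181 to 3498 CPM in mutants. Fgfr1, the targeted gene, was at 529.3, 924.4 and 433.9 CPM in controls and at 148.4, 317.9 and 261.6 CPM in mutants. Every mutant was below every control, with a log2 fold change of -1.37 ± 0.40 (SE) and an adjusted p of 0.0881 by edgeR's quasi-likelihood test with Benjamini-Hochberg adjustment. Fgfr1 passed the study's threshold, given below, in all 16 settings tried.

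Small leucine-rich proteoglycans are secreted proteins built around a curved domain of leucine-rich repeats that binds collagen and limits the lateral growth of fibrils. Decorin, biglycan and asporin form a class in which the first pair carry chondroitin or dermatan sulfate chains and asporin usually carries none, while lumican, fibromodulin and osteoglycin belong to classes that can carry keratan sulfate. Periostin and osteonectin are matricellular proteins, which modulate the contact between cells and matrix, and fibronectin is the adhesive glycoprotein on which many matrix proteins assemble. In the tooth these genes are known from dental pulp, dental follicle, periodontal ligament, odontoblasts and bone.

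The difference in chain attachment can be read in the start of the coding sequence, shown here because it separates the members of the decorin class. The first 180 coding bases are given 5′ to 3′ on the plus strand of GRCm38 from transcripts Dcn-201 (chr10:97483363-97483542), Bgn-201 (chrX:73490790-73490969) and Aspn-201 (chr13:49551664-49551843), each lying in 1 exon. Capitals mark a serine codon followed by a glycine codon, the pair at which chains can be attached, and in Aspn 2 runs of 4 aspartate codons each.
Dcn: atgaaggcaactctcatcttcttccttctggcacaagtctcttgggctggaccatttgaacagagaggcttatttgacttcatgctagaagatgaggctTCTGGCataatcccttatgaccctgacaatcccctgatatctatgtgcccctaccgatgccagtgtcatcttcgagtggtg
Bgn: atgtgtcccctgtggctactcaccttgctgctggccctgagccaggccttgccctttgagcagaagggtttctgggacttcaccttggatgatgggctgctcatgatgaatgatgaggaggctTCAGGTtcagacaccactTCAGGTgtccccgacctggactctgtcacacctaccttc
Aspn: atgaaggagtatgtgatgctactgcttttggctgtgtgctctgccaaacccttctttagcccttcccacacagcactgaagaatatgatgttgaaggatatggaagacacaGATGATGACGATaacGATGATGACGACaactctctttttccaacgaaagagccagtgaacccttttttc
Within these stretches Dcn held 1 serine-glycine codon pair, Bgn held 2 and Aspn held 0. The number of aspartate codons was 4 in Dcn, 7 in Bgn and 10 in Aspn. The GC content of the whole coding sequence was 47.6% in Dcn, 53.3% in Bgn and 38.4% in Aspn.

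The order of abundance was compared per length, as CPM per kilobase of the principal transcript. Sparc was the highest and Aspn the lowest of the 9 genes in all 6 samples. In controls the means were 2722 ± 994 CPM per kilobase for Sparc, 476 ± 206 for Bgn, 340.0 ± 70.6 for Lum, 297 ± 52.7 for Dcn and 245 ± 146 for Fmod (SD, n = 3). Below them were Postn at 112 ± 85.4, Fn1 at 66.0 ± 40.3, Ogn at 20.5 ± 8.38 and Aspn at 2.96 ± 2.05 CPM per kilobase in controls. The level of Sparc stood clear of all others. Between samples, the SD ranges of Bgn, Lum, Dcn and Fmod overlapped, as did those of Postn and Fmod and of Postn and Fn1. Within samples the order was steadier. Lum was above Dcn, Fmod above Postn and Postn above Fn1 in all 6 samples. Bgn was second to Sparc in all 3 controls, and Lum was second in all 3 mutants. In mutants the means were 1825 ± 129 CPM per kilobase for Sparc, 371 ± 67.8 for Lum, 328 ± 95.9 for Dcn and 313 ± 34.2 for Bgn. Together the 9 genes held 1.15%, 1.68% and 0.669% of all counts in controls and 0.760%, 0.699% and 0.616% in mutants, and Sparc made up 51.6% to 61.7% of that share in every sample.

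**Figure D1:**
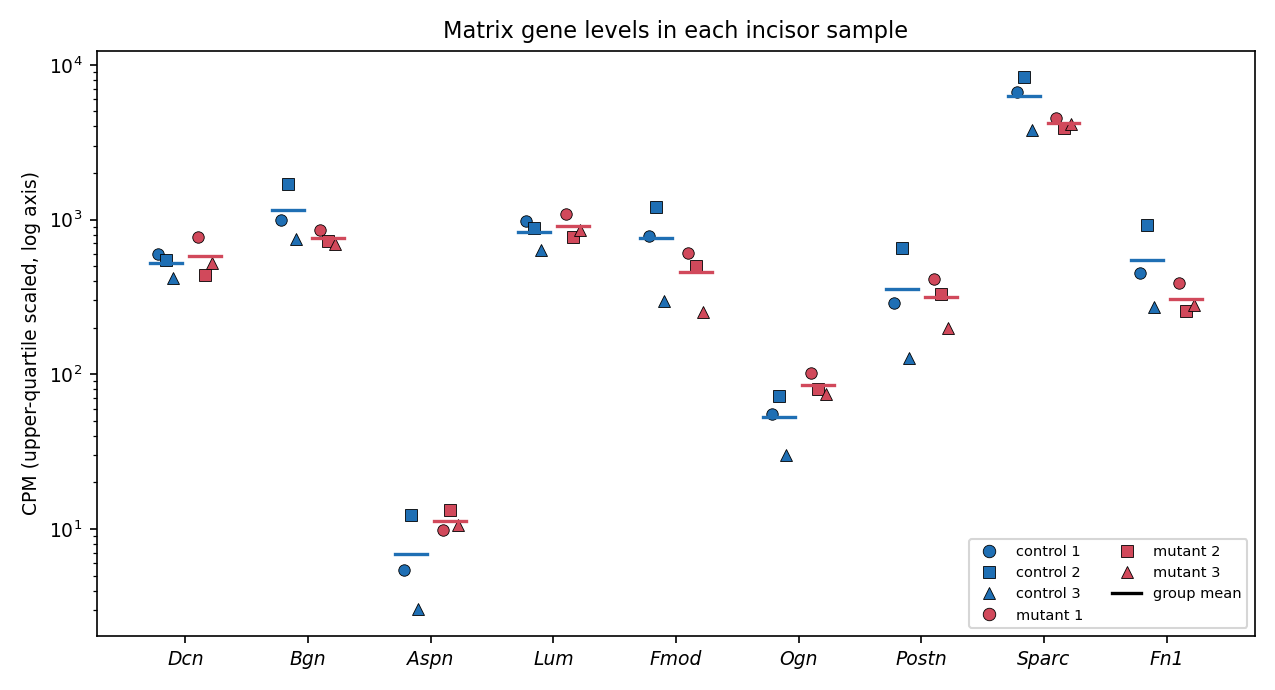
Level of each of the 9 genes in CPM, scaled by the upper quartile, on a log axis, with 1 point for each of the 3 control and 3 mutant samples and a bar for each group mean. Control 3 is the lowest control for all 9 genes, and Ogn is the only gene of the 9 whose groups do not overlap on this scale (they overlap under TMM or total-count scaling).

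None of the 9 genes differed between mutant and control incisors past the study's threshold of p under 0.05 and more than 1.5-fold, a threshold that 19.8% of all genes tested passed. None had an adjusted p under 0.05 by edgeR, which 6.79% of all genes tested did, and none had an unadjusted p under 0.05. DESeq2 gave 3 of 9 past the study's threshold (Bgn, Sparc and Fn1, all lower in mutants) and 0 at adjusted p under 0.05, and limma-voom gave 0 by either measure. Of the 15826 genes tested, 3358 passed the study's threshold with DESeq2 and 3769 with limma-voom. In 1 of 9 genes the groups did not overlap, compared with 30.4% of all genes tested. The median log2 fold change of the 9 genes was -0.19 beside -0.04 for all genes tested, with 4 genes above 0 and 5 below. These are tissue values, in which fewer cells of a type and less RNA per cell cannot be told apart.

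Within the decorin class, Dcn was at 596.5, 551.3 and 418.3 CPM in controls 1 to 3 and at 765.9, 441.2 and 525.2 CPM in mutants 1 to 3. The groups overlapped, with mutant 1 the highest sample and control 3 the lowest. The log2 fold change was 0.15 ± 0.30 (SE) with a 95% interval from -0.55 to 0.84 and an adjusted p of 0.857. Bgn (chrX:73483602-73495933) was at 992.1, 1709 and 752.8 CPM in controls and at 851.4, 730.1 and 693.3 CPM in mutants. Mutant 1 lay between the controls, and the other mutants lay below all of them. Its log2 fold change was -0.60 ± 0.36, with an interval from -1.42 to 0.22 and an adjusted p of 0.408, and it ranged from -0.83 to -0.20 when 1 sample was left out. Aspn, the least abundant member, was at 5.45, 12.2 and 3.03 CPM in controls and at 9.82, 13.3 and 10.6 CPM in mutants. Control 2 lay among the mutants while controls 1 and 3 were lower. Its log2 fold change of 0.70 ± 0.68 had the widest interval of the 9, from -0.87 to 2.27, and an adjusted p of 0.654. It was 1.41 without control 2 and 0.35 without control 3. After the length and GC correction the direction turned for Aspn (-0.48) and for Dcn (-0.61). That of Dcn also turned with total counts (-0.14).

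The balance of decorin to biglycan was then described with a ratio chosen after the values were seen. The Bgn to Dcn ratio of CPM was 1.66, 3.10 and 1.80 in controls and 1.11, 1.65 and 1.32 in mutants. Every mutant was below every control, although mutant 2 and control 1 were nearly equal. After the length and GC correction the ratio was 1.49, 1.91 and 1.39 in controls and 1.53, 2.04 and 1.80 in mutants, so that the groups overlapped and the direction turned. For the gene pair Dcn and Lum on chromosome 10 the ratio was 0.614, 0.622 and 0.655 in controls and 0.700, 0.571 and 0.611 in mutants, with overlapping groups.

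Among the keratan sulfate classes, Lum was at 971.7, 886.2 and 638.8 CPM in controls and at 1094, 772.5 and 860.0 CPM in mutants. The groups overlapped, and the sample order of Lum matched that of Dcn, with mutant 1 the highest and control 3 the lowest. The log2 fold change was 0.13 ± 0.29 with an interval from -0.55 to 0.80 and an adjusted p of 0.873. Its direction turned after the length and GC correction (-0.46) and with total counts (-0.15). Fmod, which binds the same region of collagen as lumican, was at 787.8, 1209 and 296.9 CPM in controls and at 612.0, 500.0 and 254.0 CPM in mutants. Control 3 fell within the mutant range, and the controls alone differed by 4.07-fold. Its log2 fold change was -0.75 ± 0.53, with an interval from -1.96 to 0.47 and an adjusted p of 0.508. Ogn was at 55.2, 72.8 and 30.0 CPM in controls and at 101.5, 80.0 and 74.6 CPM in mutants. With upper-quartile scaling it was the only member whose groups did not overlap, although the lowest mutant was close to control 2. The groups of Ogn overlapped with TMM scaling, with total counts and after the length and GC correction, which turned its fold change to -0.37 on the log2 scale. Its log2 fold change was 0.69 ± 0.34, with an interval from -0.08 to 1.47 and an adjusted p of 0.305. Without control 2 its log2 fold change was 1.00 and passed the study's threshold, with an adjusted p of 0.223, and without control 3 it was 0.42. With the replicate block, a setting that treats same-numbered control and mutant samples as pairs, it was 0.78 and also passed, with an adjusted p of 0.215.

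Of the matricellular genes, Postn (chr3:54361109-54391037, plus strand), which is abundant in periodontal ligament, was at 288.8, 658.4 and 126.8 CPM in controls and at 411.6, 331.7 and 199.3 CPM in mutants. All 3 mutants lay between the lowest and the highest control, and the controls differed by 5.19-fold, the widest spread of the 9 genes. The log2 fold change was -0.19 ± 0.56 with an interval from -1.47 to 1.09 and an adjusted p of 0.905. Without control 2 it was 0.60. Sparc (chr11:55394500-55423183, minus strand), a collagen-binding protein of mineralised tissue, was at 6690, 8301 and 3788 CPM in controls and at 4513, 3927 and 4151 CPM in mutants. The mutants were close together, with 1.15-fold between the highest and the lowest, and control 3 was below all of them. Its log2 fold change was -0.58 ± 0.42, with an interval from -1.54 to 0.38 and an adjusted p of 0.520. Fn1 (chr1:71585520-71653200, minus strand) was at 453.3, 921.3 and 272.2 CPM in controls and at 390.9, 255.3 and 279.0 CPM in mutants. Control 3 lay among the mutants. Fn1 had the lowest fold change of the 9, at -0.83 ± 0.44 on the log2 scale, with an interval from -1.85 to 0.19 and an adjusted p of 0.355. Without control 3 the log2 fold changes of Fn1 (-1.16) and Fmod (-1.13) passed the study's threshold, with adjusted p-values of 0.283 and 0.345. Without control 2 they were -0.23 for Fn1 and -0.25 for Fmod, and those of Bgn and Sparc were -0.20 and -0.32.

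**Figure D2:**
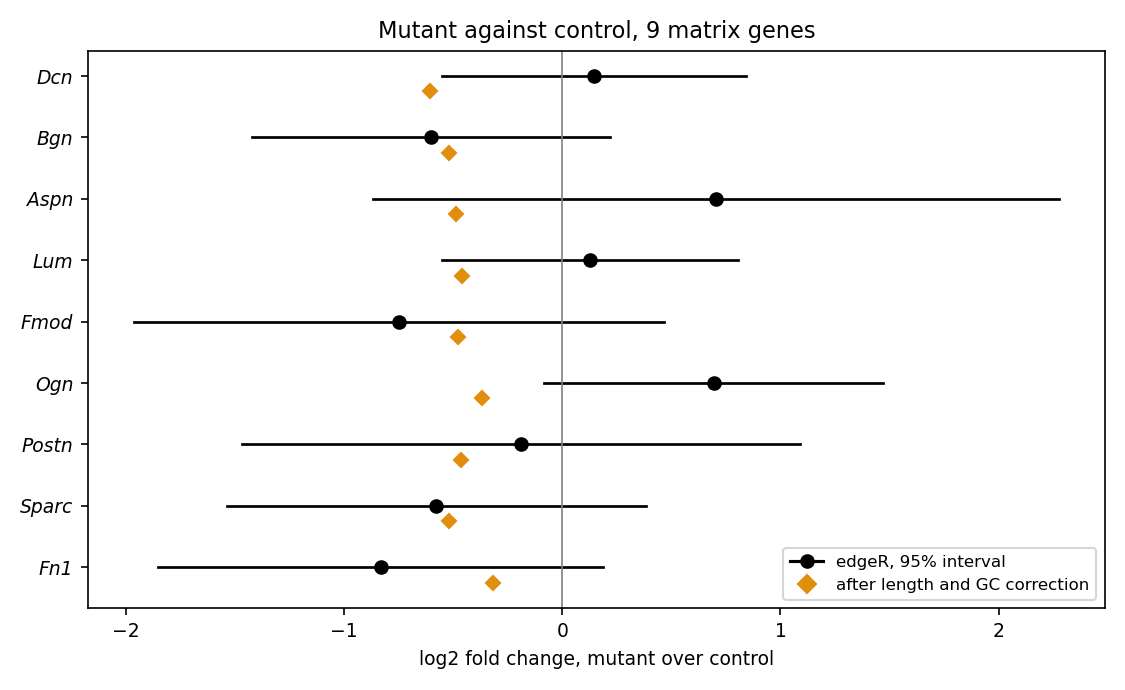
Log2 fold change of each gene, mutant over control, with its 95% interval from edgeR (black) and the value after correction for transcript length and GC content (orange). All 9 intervals include 0, and after the correction all 9 values lie between -0.61 and -0.32.

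The 9 genes shared part of their variation between samples. Control 3 was the lowest control in 9 of 9 genes, a place it took in 28.1% of all genes tested. Control 2 was the highest control in 7 of 9 genes, compared with 33.8% of all genes, and mutant 1 was the highest mutant in 8 of 9, compared with 34.8%. The summed level of the 9 genes was 10841, 14321 and 6326 CPM in controls and 8750, 7051 and 7047 CPM in mutants, so that the mutants lay inside the control range. Over the 6 samples, Pearson's r between log2 levels was above 0 for all 36 pairs, with a median of 0.527 and 4 pairs above 0.9. These values share libraries and group differences and are given as a description. The closest pairs were Bgn with Fn1 (0.986), Dcn with Lum (0.954), Sparc with Fn1 (0.947) and Bgn with Sparc (0.933), and the least alike were Bgn and Ogn (0.127). Among 3159 candidate genes with a mean of at least 50 CPM, the nearest to the members' mean over the 6 samples were Olfml2b (0.974), Aldh1a3 (0.951), Sulf2 (0.944), Bicc1 (0.939) and Rin2 (0.934).

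Markers of tissue around the tooth also varied between samples. The summed level of 8 skeletal muscle markers, led by Acta1, was 7.52, 2637 and 25.8 CPM in controls and 4969, 148 and 802 CPM in mutants. Control 2 and mutant 1, which were high for most of the 9 genes within their groups, were also the highest for muscle markers in each group. The other samples did not follow this order. Control 3, the lowest control for all 9 genes, was above control 1 for muscle markers. Mutant 3 was above mutant 2 for muscle markers, while the 9 genes summed to 7047 CPM in mutant 3 and 7051 CPM in mutant 2. The 5 erythroid markers, led by Hbb-bs, summed to 823, 822 and 380 CPM in controls and to 1289, 926 and 2559 CPM in mutants. Here every mutant was above every control. Of these 5 markers 2 rose and 1 fell, the latter also at adjusted p under 0.05. Hbb-bs passed the study's threshold in 15 of 16 settings and was lost after the length and GC correction (0.50). The 5 odontoblast markers, led by Col1a1, summed to 21388, 59586 and 26631 CPM in controls and to 23950, 20670 and 26214 CPM in mutants, with control 2 far above the other samples. The 10 ameloblast markers, led by Amelx, summed to 86342, 98366 and 122142 CPM in controls and to 34959, 34057 and 73220 CPM in mutants, where every mutant was below every control. The 10 genes had a median log2 fold change of -0.63, with 8 below 0 and 2 above. The sum is mostly Amelx (56.6%), which did not pass in the main analysis (log2 fold change -1.23, adjusted p of 0.370). There 0 of the 10 fell. Amelx passed the study's threshold in 7 of 16 settings, with log2 fold changes from -2.16 to -0.98 over all of them. Settings where it passed included total counts, DESeq2, limma-voom, the replicate block and the length and GC correction. Odam, an ameloblast marker named after its values were seen, rose, with a log2 fold change of 1.76 ± 0.42 and an adjusted p of 0.0466, and its call was lost after the length and GC correction (0.54). The 8 fibroblast and ligament markers, led by Pdgfra, summed to 303, 424 and 238 CPM in controls and to 166, 257 and 236 CPM in mutants, with overlapping groups. Of these markers 6 were tested, with a median log2 fold change of -0.04, and 1 rose (Tnmd) and 1 fell (Pdgfrb), both named after their values were seen. The other 2, which were not tested, had 0 counts in all 3 mutants. Dpt had 3, 20 and 7 counts in the deeper control libraries and Pi16 had 21, 37 and 5, which bounds the difference at 2.49-fold or more for Dpt and 5.23-fold or more for Pi16 when 3 counts are allowed over the mutant group. The part of these cell types in the values of the 9 genes was not tested.

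The sign of the fold change followed the base composition of the transcripts. The 5 genes with under 45% GC (Dcn, Lum, Ogn, Aspn and Postn, 34.3% to 44.3%) had 4 log2 fold changes above 0 (2 under scaling to total counts), and the 4 genes with 52.5% to 53.7% GC (Bgn, Fmod, Sparc and Fn1) had 0 above 0. The same held across protein-coding genes averaging 50 CPM or more. Of 112 such genes with under 40% GC, 92.9% were higher in mutants, with a median log2 fold change of 0.87. Of 525 genes with 40% to 45% GC, 74.3% were higher, with a median of 0.32, and of 921 genes with 50% to 55% GC, 36.5% were higher, with a median of -0.22. Each of the 9 genes was below the median of its GC interval, although Aspn lies under 50 CPM itself. After the fold changes were corrected for transcript length and GC content, all 9 genes were below 0, from -0.61 for Dcn to -0.32 for Fn1, with 0 of 9 past either threshold. The median of all genes tested was also below 0 under this correction, at -0.11.

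**Figure D3:**
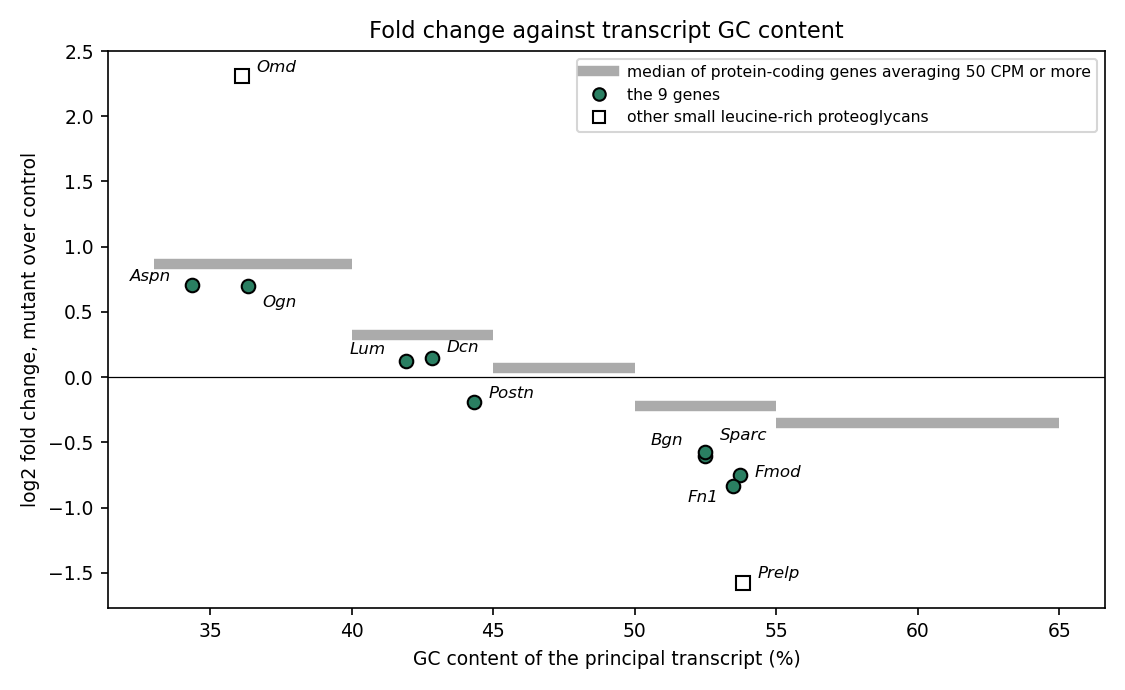
Log2 fold change, mutant over control, against the GC content of the principal transcript for the 9 genes (green) and for Omd and Prelp (open squares), with grey bars for the median of protein-coding genes averaging 50 CPM or more in each GC interval. All 9 genes lie below the grey bar of their interval.

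Several members lie beside other genes of the family. Aspn (chr13:49544443-49567565), Omd (chr13:49582462-49592822) and Ogn (chr13:49608046-49624501) follow each other on the plus strand of GRCm38, with 14896 and 15223 bases between neighbours. Omd encodes osteomodulin, a keratan sulfate proteoglycan that binds hydroxyapatite in bone and dentin. Omd was at 38.2, 28.4 and 26.6 CPM in controls and at 191.0, 116.5 and 154.4 CPM in mutants. The mutant and control values were widely separated. The log2 fold change was 2.31 ± 0.28, with an adjusted p of 0.00659 by edgeR. It passed the study's threshold in all 16 settings tried, with log2 fold changes from 1.23 to 2.48 and adjusted p-values from 6.01e-12 to 0.0613. The adjusted p was above 0.05 after the length and GC correction, where the log2 fold change was 1.23, and without control 3, where the adjusted p was 0.0613. On either side of Omd, neither Ogn nor Aspn passed the test, as given above.

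The promoters of this gene cluster are shown for comparison with that of Bgn, a member with a GC-rich transcript. Each run holds 250 bases before and 50 bases from the RefSeq transcript start (GRCm38.p6, plus strand): Aspn at chr13:49544193-49544492, Omd at chr13:49582212-49582511, Ogn at chr13:49607765-49608064 and Bgn at chrX:73483351-73483650. Capitals mark matches on either strand to 4 motifs, which may overlap. The motifs were TATAAA for the TATA box and GGGCGG for the GC box, with CCAAT for the box of that name and TGACTCA for the AP-1 site.
Aspn: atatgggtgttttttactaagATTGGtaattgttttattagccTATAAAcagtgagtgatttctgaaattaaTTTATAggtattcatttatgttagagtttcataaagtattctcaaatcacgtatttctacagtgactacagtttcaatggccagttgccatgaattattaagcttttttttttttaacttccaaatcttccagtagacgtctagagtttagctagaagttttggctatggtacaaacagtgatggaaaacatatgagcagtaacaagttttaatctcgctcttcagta
Omd: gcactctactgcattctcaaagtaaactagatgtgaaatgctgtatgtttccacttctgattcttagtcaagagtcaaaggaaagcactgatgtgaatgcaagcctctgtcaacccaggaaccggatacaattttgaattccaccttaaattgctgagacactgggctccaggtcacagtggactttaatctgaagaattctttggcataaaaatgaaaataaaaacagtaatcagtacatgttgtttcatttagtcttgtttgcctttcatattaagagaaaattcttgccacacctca
Ogn: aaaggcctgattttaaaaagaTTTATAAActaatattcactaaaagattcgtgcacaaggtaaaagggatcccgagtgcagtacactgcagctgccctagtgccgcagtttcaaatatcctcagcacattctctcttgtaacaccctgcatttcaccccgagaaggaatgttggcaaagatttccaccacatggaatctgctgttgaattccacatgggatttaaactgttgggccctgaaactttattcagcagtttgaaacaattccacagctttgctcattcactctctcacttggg
Bgn: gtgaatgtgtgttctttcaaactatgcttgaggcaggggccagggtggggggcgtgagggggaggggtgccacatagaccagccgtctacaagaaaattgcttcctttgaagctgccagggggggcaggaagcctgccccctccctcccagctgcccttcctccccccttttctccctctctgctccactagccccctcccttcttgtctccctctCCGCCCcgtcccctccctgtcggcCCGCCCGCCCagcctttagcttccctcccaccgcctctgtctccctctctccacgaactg
GC content of these windows was 31.0% in Aspn, 37.7% in Omd, 42.3% in Ogn and 63.7% in Bgn. TATAAA was matched 2 times in Aspn and 2 times in Ogn, where the matches overlap, and was found in 13.6% of all 32851 promoters of this length. GGGCGG was matched 3 times in Bgn and occurred in 35.7% of promoters, and CCAAT was matched 1 time in Aspn and occurred in 37.4%. None of these letters was found in the Omd window, and TGACTCA, present in 5.20% of promoters, was found in none of these windows. RefSeq promoters were matched for 6 of the 9 genes. Those of Dcn, Lum and Fn1 were not used here.

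On chromosome 10, Dcn (chr10:97479609-97518143) and Lum (chr10:97565128-97572703) are followed by Kera and Epyc, which encode keratocan and epiphycan. Kera was at 1.28, 1.43 and 0.116 CPM in controls and at 7.42, 4.61 and 0 CPM in mutants, where 3 counts correspond to 0.302 CPM in mutant 3. Epyc was at 1.40, 0.550 and 0.520 CPM in controls and at 1.75, 2.82 and 5.95 CPM in mutants. Neither passed the test, with log2 fold changes of 2.07 ± 1.68 and 2.09 ± 1.01 and adjusted p-values of 0.575 and 0.305. On chromosome 1, Fmod (chr1:134037254-134048277) lies beyond Optc and Prelp, 115839 bases from the latter. Prelp, which encodes a heparin- and collagen-binding member of the family, was at 67.6, 148 and 17.9 CPM in controls and at 23.1, 30.8 and 24.2 CPM in mutants. Prelp fell past the study's threshold, with a log2 fold change of -1.58 ± 0.64 and an adjusted p of 0.213, although control 3 was below all 3 mutants. The call held in 8 of 16 settings and was lost with limma-voom, after the length and GC correction, with the replicate block and without any of control 1, control 2 (log2 fold change -0.71), mutant 1, mutant 2 or mutant 3. Optc was at 0.433 to 0.990 CPM in controls and at 0 to 1.11 CPM in mutants, with an adjusted p of 0.818.

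**Figure D4:**
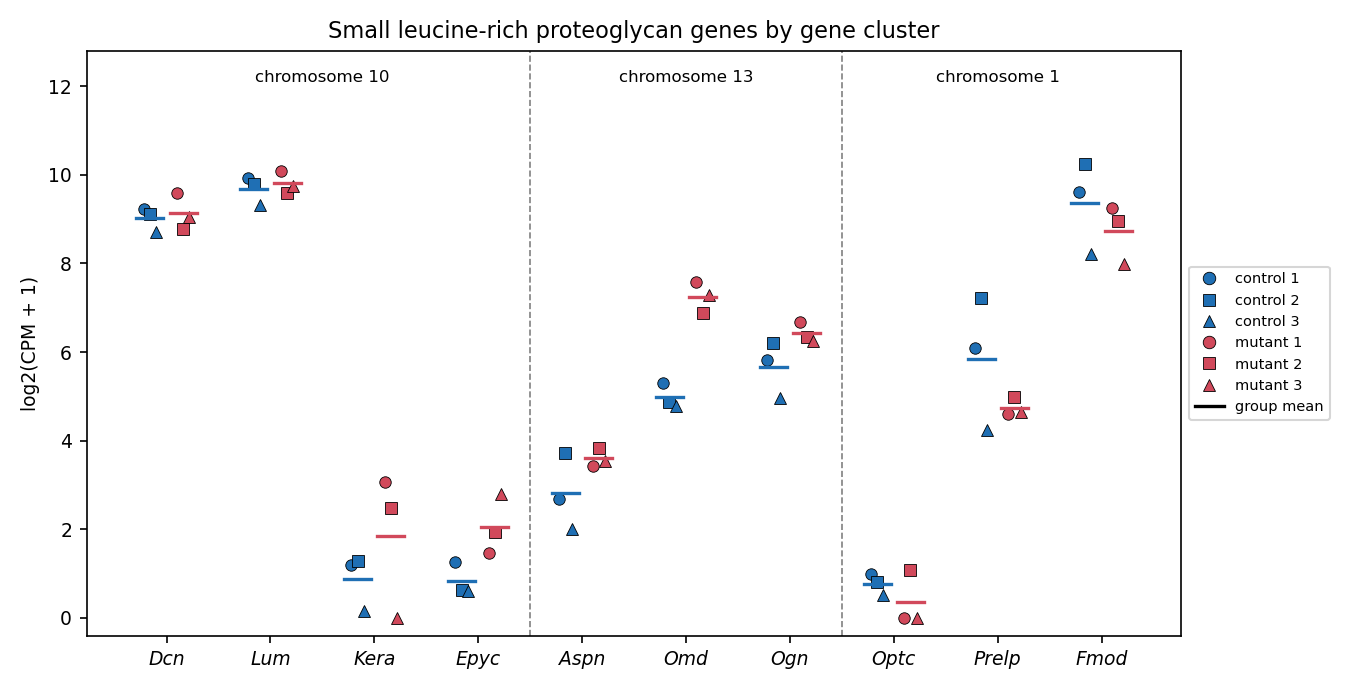
Level of the small leucine-rich proteoglycan genes that lie beside members on chromosomes 10, 13 and 1, as log2(CPM + 1), with 1 point per sample and a bar for each group mean on this scale. Only Omd, between Aspn and Ogn, shows a wide gap between the 3 mutants (116.5 to 191.0 CPM) and the 3 controls (26.6 to 38.2 CPM).

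Of the 10 further small leucine-rich proteoglycan genes in the table, 9 were tested. Of all genes tested, 10.9% rose and 8.92% fell past the study's threshold. Omd rose and Prelp fell past the study's threshold, as given above. Chad (chondroadherin) and Podn (podocan) were also past it, but passed the filter on low counts through the controls alone, so that their calls are given as a description only. Chad had 24, 50 and 27 counts in controls and Podn had 18, 29 and 20. Both had 0 counts in all 3 mutants, which corresponds to a level at least 8.38-fold lower for Chad and at least 5.56-fold lower for Podn when 3 counts are allowed over the mutant group. The median log2 fold change of the 9 tested genes was -0.46, also with Chad and Podn at these bounds. Its sign was not stable, with 0.16 without control 1, 0.51 without control 2 and 1.23 with thinned control counts, settings under which Chad and Podn did not pass the filter, and it was -1.12 without mutant 2. With 1 sample left out, the number that fell ranged from 0 (without control 1 or control 2) to 4 (without mutant 2), and it was 0 with the replicate block and 1 with DESeq2, where Chad and Podn were not called. The number that rose was 2 without mutant 1.

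Among other matricellular genes, 22 were tested, of which 0 rose and 3 fell, with a median log2 fold change of -0.42. The number that fell was 1 after the length and GC correction and without control 2, 5 with DESeq2 and with total counts, and 6 with the replicate block. A gene rose in 2 settings, 1 without control 2 and 1 without mutant 1. Spock2, a testican proteoglycan, was at 79.8, 123 and 80.1 CPM in controls and at 41.3, 60.9 and 28.7 CPM in mutants. Its log2 fold change was -1.11 ± 0.33 with an adjusted p of 0.0966, and after the length and GC correction it was -0.61 and no longer passed. Thbs2, a thrombospondin that binds collagen and matrix proteases, was at 116.9, 161 and 104 CPM in controls and at 80.3, 80.0 and 63.5 CPM in mutants. The groups of both genes did not overlap. The log2 fold change of Thbs2 was -0.77 ± 0.25 with an adjusted p of 0.121, and its call was lost after the length and GC correction (-0.55) and without control 2 or mutant 3. The third, Ccn4, had a log2 fold change of -0.87 ± 0.35 and an adjusted p of 0.211, and was named after its values were seen. Its call was lost without control 2, control 3, mutant 1 or mutant 2.

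Of 20 genes tested that build and modify chondroitin and dermatan sulfate chains, 2 rose and 2 fell, a share close to the 19.8% of all genes tested. The median log2 fold change was -0.19, which moved to 0.061 when length and GC were corrected for, to -0.45 with scaling to total counts and to -0.094 without control 2. The number that fell ranged from 1 to 5 over the settings. Dsel, a homologue of the epimerase that converts chondroitin to dermatan sulfate, was at 25.1, 23.2 and 24.2 CPM in controls and at 70.3, 73.3 and 47.6 CPM in mutants. Every mutant was above every control, with a log2 fold change of 1.40 ± 0.27 and an adjusted p of 0.0398, and the study's threshold was passed in all 16 settings. The adjusted p was under 0.05 in 6 of the 16, ranging from 0.000511 to 0.189, and was above 0.05 whichever sample was left out. Chpf2, a chondroitin polymerising factor, was at 44.7, 52.4 and 51.6 CPM in controls and at 0.873, 14.9 and 15.1 CPM in mutants. Every mutant was below every control, with a log2 fold change of -2.24 ± 0.75 and an adjusted p of 0.135, and passed the study's threshold in all 16 settings. Csgalnact2, which adds the N-acetylgalactosamine that begins a chondroitin chain, rose by 0.89 ± 0.37 on the log2 scale, with an adjusted p of 0.228 and with mutant 1 among the controls, and passed in 6 of 16 settings, not including the length and GC correction (0.28) or leaving out any sample but mutant 1. Chst11, a chondroitin 4-O-sulfotransferase, fell, with a log2 fold change of -0.60 ± 0.25 and an adjusted p of 0.233, and passed in 9 of 16 settings. The call of Chst11 was lost after the length and GC correction (-0.32), with limma-voom, among protein-coding genes alone and without control 2, control 3, mutant 1 or mutant 2.

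Of 15 other proteoglycan core genes tested, 1 rose and 1 fell, with a median log2 fold change of -0.39. With total counts 0 rose and 5 fell, with a median of -0.66, and 3 fell with DESeq2, with limma-voom, with the replicate block and without control 1. The number that fell was 0 after the length and GC correction and without control 2, mutant 1 or mutant 3. Sdc4, the cell-surface heparan sulfate proteoglycan syndecan-4, was at 189, 146 and 115 CPM in controls and at 275, 244 and 212 CPM in mutants, with a log2 fold change of 0.70 ± 0.26 and an adjusted p of 0.178. Agrn, the basement membrane proteoglycan agrin, had a log2 fold change of -0.85 ± 0.32 and an adjusted p of 0.174, and every mutant was below every control. Sdc4 passed in 12 of 16 settings and was lost with total-count scaling and without control 3, mutant 1 or mutant 2. Agrn passed in 11 of 16 settings and was lost without control 2, control 3, mutant 1 or mutant 3, and its log2 fold change was -0.20 after the length and GC correction. Of 9 integrin genes that encode fibronectin receptors, 0 rose and 1 fell. The number that fell was 2 with total counts, the length and GC correction, the replicate block or without control 1, 3 without mutant 3, and 0 without control 3, mutant 1 or mutant 2. Itgb5, the integrin beta 5 subunit, was at 143, 214.1 and 214.4 CPM in controls and at 79.0, 101.5 and 136 CPM in mutants, with a log2 fold change of -0.85 ± 0.29 and an adjusted p of 0.136. Its call was lost after the length and GC correction (-0.44) and without control 3, mutant 1 or mutant 2. Itgb1, the common beta subunit of many of these receptors, named after its values were seen, had a log2 fold change of 0.20 ± 0.24 and an adjusted p of 0.738.

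Genes for the collagens to which many of these proteins bind were described last. All 11 fibrillar and fibril-surface collagen genes had log2 fold changes below 0 (8 of 11 after the length and GC correction and 6 of 11 without control 2), with a median of -0.77 (-0.11 without control 2), and 2 of 11 fell past the study's threshold. Col1a2, a chain of type I collagen, was at 3921, 9057 and 4602 CPM in controls and at 2731, 2455 and 2878 CPM in mutants, with a log2 fold change of -1.12 ± 0.43 and an adjusted p of 0.190. Col5a1, a chain of the type V collagen that nucleates fibrils, had a log2 fold change of -1.10 ± 0.38 and an adjusted p of 0.149. For both genes every mutant was below every control. The calls of both were lost after the length and GC correction, that of Col1a2 also without any of the 3 mutants, and that of Col5a1 without control 2, mutant 2 or mutant 3. Of 17 genes for collagen processing and cross-linking, 16 had log2 fold changes below 0 and 6 fell, with a median of -0.76 (-0.44, with 14 of 17 below 0, after the length and GC correction). Of all genes tested, 51.8% had log2 fold changes below 0 and 8.92% fell. Plod1, a lysyl hydroxylase, was at 88.4, 119 and 75.2 CPM in controls and at 43.9, 49.7 and 55.4 CPM in mutants, with a log2 fold change of -0.92 ± 0.25 and an adjusted p of 0.0718. Plod3, of the same enzyme family, had a log2 fold change of -0.997 ± 0.30 and an adjusted p of 0.102. After the length and GC correction, 0 of the 11 collagen genes and 1 of the 17 processing genes fell past the study's threshold, and Plod1 (-0.54) and Plod3 (-0.56) no longer passed. Leaving out 1 sample at a time gave 0 to 3 of the collagen genes and 4 to 7 of the processing genes.

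**Figure D5:**
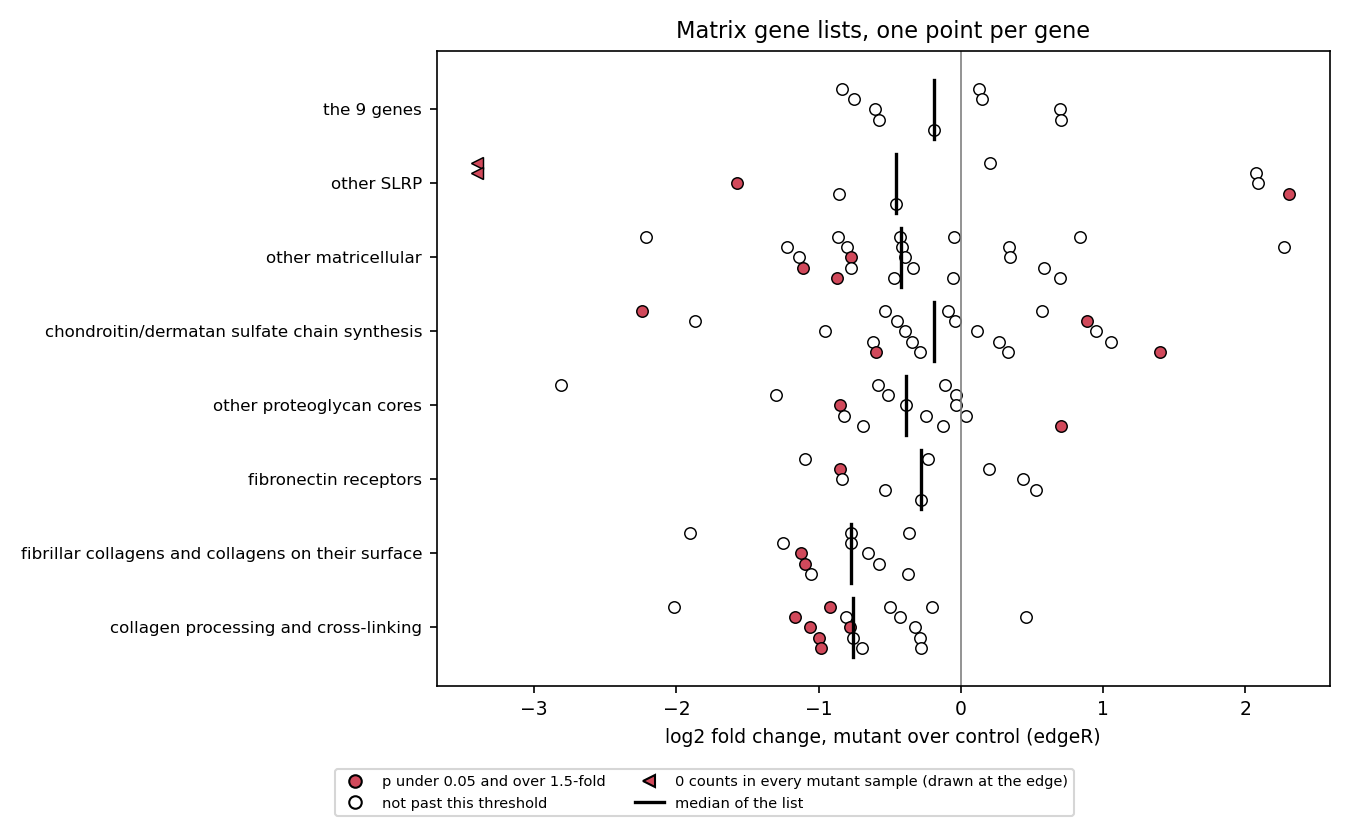
Log2 fold change, mutant over control, of each tested gene of the 9 and of the matrix lists (SLRP, small leucine-rich proteoglycans), with a bar for the median of each list. Red points passed p under 0.05 and more than 1.5-fold, and triangles at the left edge are Chad and Podn, with 0 counts in every mutant.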

How the data were processed

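RNA from the proximal end of mouse incisors was sequenced as single reads. The authors deposited estimated counts per gene, not normalised, made in Partek Flow on mm10. The submitters' notes also name TopHat2. The deposited values need not be whole and were rounded. A second table holds the authors' own comparison (p-values, fold changes and group means) and was not used. Counts were scaled by the upper quartile (0.75) and tested with edgeR 4.0.16 in R 4.3.3 by the quasi-likelihood test across 15826 genes with a minimum count of 10 and a minimum total of 15, with Benjamini-Hochberg adjustment. Rose and fell refer to p under 0.05 and more than 1.5-fold, without adjustment. Alternatives used DESeq2 1.42.0, limma 3.58.1, other scalings and filters, thinning of control counts to 9484806 per library, and a length and GC correction. This correction was fitted with mgcv 1.9.3 on protein-coding genes whose unscaled counts averaged 50 or more. GENCODE M21 supplied coordinates, length and GC content for 18637 symbols directly and 219 through synonyms, and 204 were unmatched. The total counts per sample set the precision, and floors of 3 counts cover counting error only.

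The 9 genes and the lists were chosen with earlier results of these data known. The genes named were the 9 genes and Fgfr1, up to 2 rising and 2 falling genes of smallest p from each list, family genes beside members, the most abundant gene of each cell marker list, and the 5 genes outside the lists nearest to the members' mean. Itgb1, Dspp, Dpt, Pi16, Odam, Tnmd, Pdgfrb and Ccn4 were named outside this rule, after their values were seen. Of the cell marker lists, those for bone and cementum, smooth muscle and pericyte, endothelium, macrophage and Schwann cell are given in the closing section.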

Additional observations from a re-analysis of the deposited data

How the results depend on the processing

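Of the 9 genes, 0 had an adjusted p under 0.05 in any of the 16 settings. Past the study's threshold there were 0 of 9 in the main analysis, 2 with scaling to total counts (Bgn and Fn1), 3 with DESeq2, 1 with the replicate block (Ogn, log2 fold change 0.78), and 0 to 2 when 1 sample was left out. Of the 15826 genes tested, 3588 passed with total counts, 3358 with DESeq2 and 2743 with the replicate block. The numbers with 1 sample left out are given below. Non-overlapping members numbered 1 in the main analysis, 0 with TMM scaling, 2 with total counts (Bgn and Sparc, lower in mutants) and 0 after the length and GC correction. The groups did not overlap in 30.4% of all genes in the main analysis. That share is not given here for the other scalings. Direction changed for Dcn (-0.14 with total counts, -0.61 after length and GC correction), Lum (-0.15 and -0.46), Ogn (-0.37) and Aspn (-0.48) after that correction, and Postn (0.046 with limma-voom, 0.069 with the replicate block). With 1 sample left out, log2 fold changes ranged from -0.13 to 0.30 for Dcn (below 0 without mutant 1), from -0.043 to 0.25 for Lum (below 0 without control 3 or mutant 1) and from -0.59 to 0.60 for Postn (above 0 without control 2 or mutant 3). The cause was not tested.

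Genes past the study's threshold numbered 3137, with 1726 higher and 1411 lower in mutants (55.02% higher). There were 4733 without a filter and 2014 to 4732 with 1 sample left out. The share higher was 46.7% with TMM, 34.9% with total counts, where the median log2 fold change of all genes was -0.30, and 42.0% after the length and GC correction. Genes at adjusted p under 0.05 numbered 1074 in the main analysis, 1609 with DESeq2, 1340 with limma-voom, 1137 with total counts, 229 without a filter, 54 among protein-coding genes, 153 after the length and GC correction, 374 with thinned controls, 508 with the replicate block and 75 to 606 with 1 sample left out. Deviations of same-numbered samples correlated at r = 0.074, 0.023 and 0.088, which does not pair the samples, although each sample correlated best with its own number, a hint from the data. The methods of the study mention pairs of samples in the sequencing but do not say which samples form a pair. The main analysis did not model pairs, and the replicate block treated same-numbered samples as pairs. Mutant libraries had 17.1% to 30.3% of genes at 0, against 3.83% to 3.96% in controls, which limits low genes such as Aspn, Kera and Chad.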

Other observations

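The 6 bone and cementum markers, led by Bglap, summed to 9759, 7774 and 6337 CPM in controls and to 7920, 10106 and 8072 CPM in mutants. The 6 macrophage markers, led by Lyz2, summed to 416, 419 and 144 CPM in controls and to 395, 325 and 371 CPM in mutants. The 5 Schwann cell markers, led by Mbp, summed to 46.7, 42.5 and 28.7 CPM in controls and to 99.5, 55.9 and 24.0 CPM in mutants. In these lists the groups overlapped, and control 3, the lowest control for the 9 matrix genes, was also the lowest control. The 5 endothelium markers, led by Cdh5, summed to 146, 243 and 153 CPM in controls and to 126, 134 and 118 CPM in mutants, where every mutant was lower. The 6 smooth muscle and pericyte markers, led by Rgs5, summed to 522, 470 and 308 CPM in controls and to 479, 554 and 443 CPM in mutants.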
